A study of Rattus norvegicus with 12 samples.

Results

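The conjugating and hydrolysing drug enzymes of the rat liver were examined in 6 EtOH and 6 control livers. They were taken by name: the UDP-glucuronosyltransferase (Ugt1, Ugt2 and Ugt3), sulfotransferase (Sult), carboxylesterase (Ces), epoxide hydrolase (Ephx), flavin-containing monooxygenase (Fmo) and aldehyde oxidase (Aox) genes in the table, together with Ugdh. The names gave 41 genes reported here, of which 30 had a level above 0 in at least 1 liver, out of 15270 gene names above 0 in all. Where a gene had several listed transcripts, the one with the highest mean level stood for it. Of the 30 genes, 25 were above 0 in all 12 livers and 25 had a mean of at least 1 RPKM (mapped reads scaled to transcript length and library size), so 5 had a mean below 1. The other 11 (Ces1a, Ces5a, Ephx3, Ephx4, Fmo13, Fmo9p, Sult1d1, Sult4a1, Sult5a1, Ugt2a1 and Ugt3a2) were listed at 0 in every liver.

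All 12 animals were female rats of the inbred alcohol-preferring strain iP10a, with food and tap water always at hand. The 6 EtOH animals could also drink freely from bottles of 10%, 20% and 30% (v/v) ethanol for 23 weeks, and the 6 control animals had water alone. Livers were collected at 38 weeks of age, or 39 weeks for EtOH animal 6, and their poly(A) RNA was sequenced, 1 library per animal. A single inbred line selected for drinking limits what the groups stand for, and intake was voluntary, so doses were not set. The EtOH libraries were deeper, with 3945593 to 6030028 recovered reads against 2610238 to 4318141 in the control libraries. The labelled tissue was matched by its markers: the 4 hepatocyte genes found by name (Alb, Ttr, Tf and Serpina1) summed to between 82704 and 110736 RPKM in control livers and between 90995 and 116991 in EtOH livers.

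These enzymes clear drugs, hormones and bilirubin. Oxygenases such as the flavin-containing monooxygenases expose or add a polar group, esterases and epoxide hydrolases open esters and epoxides with water, and transferases then attach glucuronate or sulfate, which makes the product soluble enough for bile or urine. Glucuronate comes from UDP-glucuronate, which Ugdh makes from UDP-glucose, and sulfate comes from the donor PAPS. Most of the families are strongly expressed in hepatocytes, and many members are regulated by the receptors CAR, PXR and AHR or by the oxidant sensor NRF2.

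The EtOH livers had less mRNA of the microsomal epoxide hydrolase Ephx1, of the carboxylesterases Ces1d and Ces1f and of the glucuronosyltransferase Ugt2b1, and more of the sulfotransferase Sult1c2 and of the sparsely expressed monooxygenase Fmo2. A gene was called where the adjusted p of limma, over all 21718 transcripts above 0, lay below 0.05. By that rule 6 of the 30 members were called, 4 lower and 2 higher in EtOH livers, or 20% beside 2.42% of all transcripts tested (1.29% lower and 1.13% higher). Among transcripts with a mean of at least 1 RPKM, 4.47% were called. At an unadjusted p below 0.05 there were 15 members, with 15.5% of all transcripts at that level. In 3 members the 6 EtOH livers did not overlap the 6 control livers (Ephx1 and Ces1f lower, Fmo2 higher), beside 3.1% of all transcripts (2.43% lower, 0.677% higher) and 5.76% of those with a mean of at least 1 RPKM. The median log2 fold change of members with a mean of at least 1 RPKM was -0.11, beside 0.01 for all such transcripts, and the median of its size regardless of sign was 0.32, beside 0.19. With each liver left out in turn, between 1 and 6 members were called lower and between 0 and 2 higher. The most calls came without control replicate 6 (6 lower, 1 higher) or control replicate 1 (5 and 2), and the fewest without EtOH replicate 2 (1 and 0). Only 1 or 2 members were called lower without control 2, 3 or 4 or without any EtOH liver other than the fifth, and 0 were called higher by limma without control 2 or 3 or EtOH 2, 4, 5 or 6, and 1 without control 4, 5 or 6 or EtOH 1 or 3. Without normalisation between livers the calls split into 6 lower and 1 higher.

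**Figure D1:**
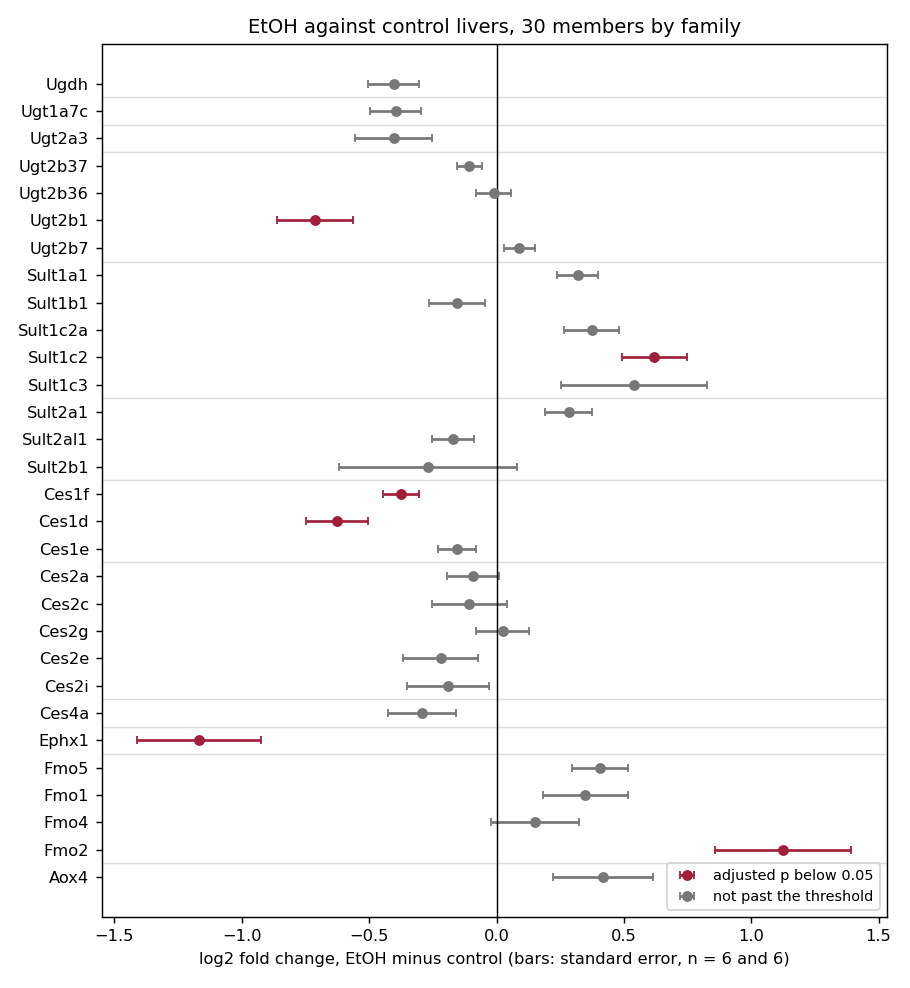
Log2 fold change (horizontal axis, EtOH minus control, after quantile normalisation of log2 RPKM) of the 30 members, grouped by family and ordered within it by mean level. Points are estimates, bars are standard errors with 6 livers per group, and the 6 members with an adjusted p below 0.05 are in red: Ephx1 at -1.17 is the lowest and Fmo2 at 1.12 the highest.

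Log2 fold changes here were taken after quantile normalisation, so they differ from the log2 of the ratio of mean RPKM, which is given as a fold. As deposited, the median of the transcripts with a mean of at least 1 RPKM lay at -0.08 (log2, EtOH minus control). Quantile normalisation did not move every transcript by that amount. With it the log2 fold change was 0.41 for Fmo5, -0.40 for Ugdh and 1.12 for Fmo2. Without normalisation between livers these were 0.26, -0.56 and 1.14. Bulk RNA cannot tell fewer cells of a type apart from less RNA in each cell.

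Glucuronidation was described first by its donor. Ugdh supplies UDP-glucuronate to the Ugt1 and Ugt2 enzymes. Its level ran from 59.9 to 104.6 RPKM in control livers (median 88.2) and from 51.4 to 59.9 in EtOH livers (median 55.4). EtOH 6 was level with the lowest control, control 6, and the other EtOH livers lay below every control. The mean was 83.0 ± 16.5 in controls and 55.3 ± 3.19 in EtOH livers (SD, n = 6 each), 1.50-fold lower, and the difference missed the threshold (log2 fold change -0.40 ± 0.10 SE, limma adjusted p = 0.054). It passed without control replicate 1 or control replicate 6, where the adjusted p fell as low as 0.011, and also without normalisation between livers (0.022), with median scaling (0.043), a pseudocount of 0.1 (0.0496), minimum means of 0.1 (0.037) or 1 RPKM (0.027), voom on recovered reads (0.043) and transcripts summed per gene (0.029). Under the other settings it ran from 0.054 to 0.12.

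The Ugt1 locus on chromosome 9 is a set of alternative first exons spliced to shared later exons, so each enzyme of the locus shares its end with the others. The table lists 10 transcripts there, all named Ugt1a7c, with 8 different start positions that run from 86986915 to 87091257 in the numbering the authors used, and 9 of them were above 0. RefSeq (GRCr8) orders 8 protein-coding genes along the locus as Ugt1a9, Ugt1a8, Ugt1a7c, Ugt1a6, Ugt1a5, Ugt1a3, Ugt1a2 and Ugt1a1. The table does not pair its transcripts with these names, so they are told apart by start position only, and reads in the shared exons could be split among them.

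The most abundant Ugt1 transcript, from 87091257 to 87098350 the last start along the locus, stood for the gene. It ran from 111.3 to 192.9 RPKM in control livers (median 178) and from 98.1 to 120.2 in EtOH livers (median 112). Only control 6 fell within the range of the EtOH livers. The mean fell from 166 ± 31.4 to 111 ± 8.03 RPKM (SD, n = 6 each) and the difference was not called (log2 fold change -0.39 ± 0.10 SE, limma adjusted p = 0.063), although without control replicate 6 its adjusted p was 0.0024. Summed over the listed Ugt1 transcripts, the log2 fold change was -0.54 with an adjusted p of 0.013.

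One of the 9 Ugt1 transcripts was called, the one from 87037169 to 87098356. Its levels ran from 14.0 to 48.4 RPKM in control livers (median 31.7) and from 6.60 to 10.3 in EtOH livers (median 8.41), with no overlap. This was a mean of 30.7 ± 12.9 against 8.41 ± 1.63 RPKM (SD, n = 6 each), 3.65-fold lower (log2 fold change -1.57 ± 0.24 SE, limma adjusted p = 0.0071). The call held with any 1 liver left out and in 12 of 13 other settings. It was lost in limma with an animal-number block (adjusted p = 0.067). The share of this transcript in the summed RPKM of the locus went from 10.3% ± 2.66 in controls to 4.74% ± 0.869 in EtOH livers. The lowest control share of 7.17% was above the highest EtOH share of 6.11%. The next start along the locus, at 87052168, gave 72.2 ± 16.2 and 46.8 ± 6.79 RPKM and was not called (log2 fold change -0.43 ± 0.12 SE, limma adjusted p = 0.084). In all, 8 of the 9 transcripts had a log2 fold change below 0, and the 6 others had means under 5 RPKM.

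**Figure D2:**
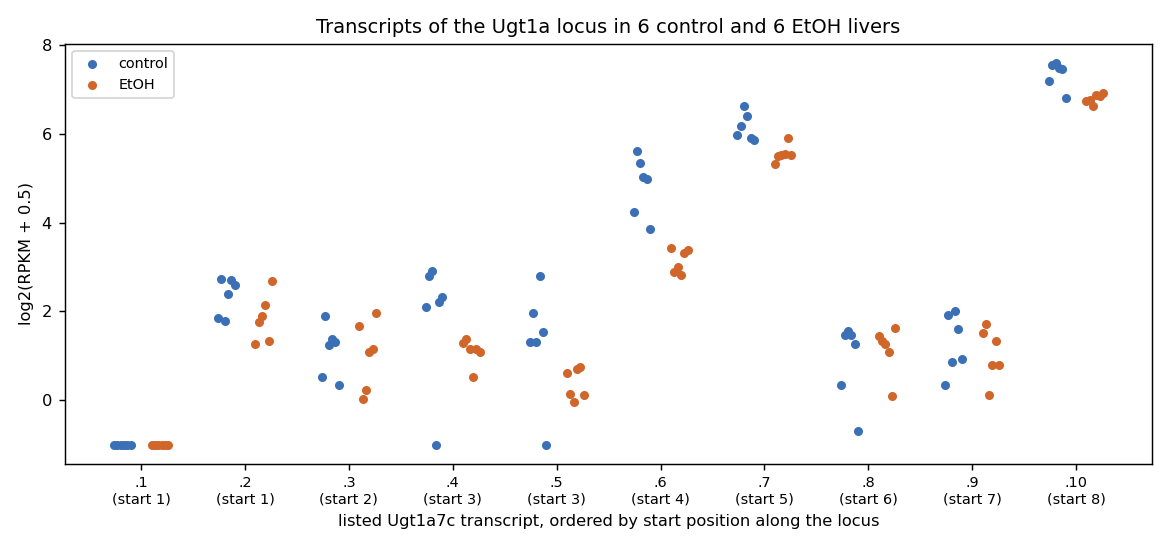
Level (vertical axis, log2 of RPKM plus 0.5) of the 10 listed Ugt1a7c transcripts in 6 control and 6 EtOH livers, 1 point per liver, ordered by start position, with transcripts that share a start given the same start number. The transcript at start 4 is the called one, whose EtOH livers all sit below the control livers, and the first transcript is at 0 RPKM in every liver.

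The Ugt2 genes lie together on chromosome 14 and glucuronidate steroids, bile acids and drugs. Ugt2b1, a broad steroid and phenol transferase of the rat liver, ran from 34.2 to 61.1 RPKM in control livers (median 47.7) and from 20.5 to 35.8 in EtOH livers (median 24.0). The groups overlapped through EtOH liver 5, the highest of its group, and control liver 5, the lowest of its own. The mean was 47.3 ± 10.5 in controls and 25.4 ± 5.32 in EtOH livers (SD, n = 6 each), 1.86-fold lower (log2 fold change -0.71 ± 0.15 SE, limma adjusted p = 0.031). With 1 liver left out the log2 fold change stayed between -0.81 and -0.66, but the adjusted p reached as much as 0.071 and the call was lost in 8 of 12 such fits, those without control 2, 3 or 4 or EtOH 1, 2, 3, 4 or 6. Of 14 other settings the call held in 11. It was lost under the study's pooled test on square-root values with the quantile step (adjusted p = 0.067). In limma it was lost with no filter (0.076) and with an animal-number block (0.13).

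The more abundant neighbours of Ugt2b1 were not called. Ugt2b37 had 303 ± 24.7 RPKM in controls and 267 ± 10.2 in EtOH livers (log2 fold change -0.11 ± 0.05 SE, limma adjusted p = 0.31), and Ugt2b36 had 285 ± 24.8 and 263 ± 8.44 (-0.01 ± 0.07 SE, adjusted p = 0.95). Ugt2a3, a bile acid transferase, ran from 45.2 to 100.6 RPKM in controls and from 37.3 to 62.6 in EtOH livers (log2 fold change -0.40 ± 0.15 SE, limma adjusted p = 0.21). Ugt2b7 was listed at 0 in every control liver and rested on 2 recovered reads, the fewest that fit, over the EtOH livers. A further Ugt2b entry, which the table gives under the protein name UD2B2_RAT and which the choice by gene name leaves out, had a first transcript of 444 ± 53.5 and 474 ± 51.5 RPKM (log2 fold change 0.19 ± 0.10 SE, limma adjusted p = 0.38). These genes are near-identical in parts, so their reads may have been split among them, and the values of Ugt2b36, Ugt2b37 and this entry are uncertain in that respect.

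Sulfation was led by the hydroxysteroid sulfotransferase Sult2a1, which sulfates dehydroepiandrosterone and bile acids and is the most abundant member by far. It ran from 3049 to 4212 RPKM in control livers (median 3569) and from 3483 to 4885 in EtOH livers (median 4047), with wide overlap. The mean of 3539 ± 403 in controls and 4142 ± 530.1 in EtOH livers (SD, n = 6 each) gave a log2 fold change of 0.28 ± 0.09 SE that was not called (limma adjusted p = 0.14). Its near-identical neighbour Sult2al1, which RefSeq lists as Sult2a6, had 1489 ± 215 and 1278 ± 53.3 RPKM (log2 fold change -0.17 ± 0.08 SE, adjusted p = 0.36). Both lie on chromosome 1 and may share reads.

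Sult1c2, a cytosolic phenol-type sulfotransferase, was the called member of the sulfotransferases. It ran from 11.3 to 19.5 RPKM in control livers (median 13.3) and from 17.4 to 25.8 in EtOH livers (median 19.5). Controls 1 and 4 were the high ones of their group, and only control 4 reached into the EtOH range. The mean of 14.4 ± 3.13 in controls and 20.1 ± 3.00 in EtOH livers (SD, n = 6 each) was 1.40-fold higher (log2 fold change 0.62 ± 0.13 SE, limma adjusted p = 0.028). The call was lost in 8 of 12 fits with 1 liver left out (all but those without control 1, 4 or 6 or EtOH 3), where the adjusted p was at most 0.064, and without normalisation between livers the adjusted p was 0.069. It was also lost under the study's pooled test on square-root values with and without the quantile step (adjusted p = 0.054 and 0.12). In limma it was lost with no filter (0.065) and with an animal-number block (0.090), and 9 of 14 other settings kept it. A less abundant listed transcript of Sult1c2 had 2.82 ± 0.791 RPKM in controls and 3.50 ± 0.989 in EtOH livers. That transcript was not called (log2 fold change 0.30 ± 0.20 SE, limma adjusted p = 0.54). A further one rested on 1 read in the EtOH livers. Sult1c2a, whose listed span on chromosome 9 overlaps that of Sult1c2, had 16.7 ± 2.08 and 19.8 ± 3.39 RPKM (0.37 ± 0.11 SE, adjusted p = 0.098), and reads of this pair may be split between them.

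The phenol sulfotransferase Sult1a1 ran from 241 to 296 RPKM in control livers (median 259) and from 256 to 375 in EtOH livers (median 308). Its log2 fold change of 0.32 ± 0.08 SE stopped short of the threshold (limma adjusted p = 0.058), but it was past it without EtOH replicate 1 (adjusted p = 0.037). Sult1b1, which sulfates thyroid hormones and phenols, had 198 ± 41.3 and 160 ± 20.3 RPKM and was not called (-0.15 ± 0.11 SE, adjusted p = 0.57). Sult1b1 sits beside the Ugt2 genes on chromosome 14.

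Carboxylesterases hydrolyse esters and amides in the endoplasmic reticulum. Of the 9 members, Ces1d and Ces1f were called lower and none higher, beside 1.29% and 1.13% of all transcripts. Ces1d, which also hydrolyses stored triacylglycerol, ran from 161 to 246 RPKM in control livers (median 217) and from 93.8 to 163 in EtOH livers (median 121). The ranges met through control 6 and EtOH 5 alone. The mean fell from 210 ± 35.2 to 123 ± 22.8 RPKM (SD, n = 6 each), 1.71-fold (log2 fold change -0.63 ± 0.12 SE, limma adjusted p = 0.022), and without EtOH replicate 2 the adjusted p was 0.051. Of 14 other settings the Ces1d call held in 13, and it was lost in limma with no filter (adjusted p = 0.056).

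Ces1f, the most abundant member of its subfamily, ran from 169 to 269 RPKM in control livers (median 210) and from 131 to 161 in EtOH livers (median 146), with no overlap between the groups. The mean fell from 212 ± 33.2 to 146 ± 10.2 RPKM (SD, n = 6 each; log2 fold change -0.38 ± 0.07 SE, limma adjusted p = 0.020), and the call held in all 12 fits with 1 liver left out. The third Ces1 gene, Ces1e, had 80.7 ± 10.1 and 64.9 ± 5.60 RPKM and was not called (-0.16 ± 0.07 SE, adjusted p = 0.33). The 3 Ces1 genes are close relatives on chromosome 19, so their shares of common reads are uncertain.

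The Ces2 genes, which favour esters with a large alcohol group, gave no call. Ces2a, the main one, ran from 106.7 to 165 RPKM in controls and from 92.1 to 127 in EtOH livers (log2 fold change -0.09 ± 0.10 SE, limma adjusted p = 0.68). Ces2c had 11.6 ± 3.32 and 9.63 ± 1.37 RPKM (-0.11 ± 0.15 SE, adjusted p = 0.75), and Ces2e, Ces2g and Ces2i had adjusted p values from 0.53 to 0.93. Ces4a had 4.55 ± 1.08 and 3.40 ± 0.568 RPKM (-0.29 ± 0.13 SE, adjusted p = 0.32).

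The microsomal epoxide hydrolase Ephx1 turns reactive epoxides into diols, and it had the lowest log2 fold change of the 30 members. It ran from 244 to 745 RPKM in control livers (median 468) and from 167 to 217 in EtOH livers (median 183). Every EtOH liver lay below every control, and the controls were widely spread, with controls 6 and 1 at 244 and 290 RPKM and controls 2 and 3 at 708 and 745. The mean was 487 ± 209 RPKM in controls and 189.6 ± 22.1 in EtOH livers (SD, n = 6 each), 2.57-fold lower (log2 fold change -1.17 ± 0.24 SE, limma adjusted p = 0.029). The standard deviation was 42.8% of the mean in controls and 11.7% in EtOH livers. With 1 liver left out the log2 fold change stayed between -1.34 and -1.04, but the adjusted p rose to between 0.050 and 0.065 in 9 of 12 fits, all but those without control 1, 5 or 6. Of 14 other settings the Ephx1 call held in 10. It was lost under the study's pooled test on square-root values with and without the quantile step (adjusted p = 0.088 and 0.072). In limma it was lost with no filter (0.075) and with an animal-number block (0.063). The soluble epoxide hydrolase, which the table gives as HYES_RAT and the choice by name leaves out, had 29.0 ± 5.38 and 19.7 ± 7.36 RPKM in its main transcript (log2 fold change -0.47 ± 0.24 SE, limma adjusted p = 0.38).

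Promoter windows of 300 bases (250 before and 50 after the RefSeq start, GRCr8) were matched for 27 of the 30 members (all but Fmo4, Ces2a and Ugt2b36) and searched on both strands for TGACNNNGC, the core of the antioxidant response element that NRF2 binds, and for GCGTG, the core that AHR binds. The first motif was in 3 of the 27 members (11.1%) and in 12.1% of all 33469 windows, and the second in 5 (18.5%) and in 29.7%. Shares over these members were thus close to or below those of all windows. The windows of Ephx1 and Ces1d, the members called lower that held a motif, and of the donor enzyme Ugdh, which held both and was not called, are shown, with matches on either strand in capitals. The Ephx1 window, chr13:95263068-95263367 on the minus strand, has TGACNNNGC 57 bases before the start, and the other RefSeq start of Ephx1 has neither motif. The Ugdh window, chr14:43202268-43202567 on the plus strand, has both motifs 207 bases before the start, overlapping each other. The Ces1d window, chr19:30046244-30046543 on the plus strand, has GCGTG 135 bases before the start. A match is a description of letters and not a bound site.
Ephx1: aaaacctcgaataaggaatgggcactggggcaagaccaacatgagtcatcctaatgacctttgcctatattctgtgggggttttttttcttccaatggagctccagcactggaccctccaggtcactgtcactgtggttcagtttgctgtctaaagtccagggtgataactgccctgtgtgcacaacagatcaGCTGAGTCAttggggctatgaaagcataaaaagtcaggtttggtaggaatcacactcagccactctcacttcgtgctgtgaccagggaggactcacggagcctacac
Ugdh: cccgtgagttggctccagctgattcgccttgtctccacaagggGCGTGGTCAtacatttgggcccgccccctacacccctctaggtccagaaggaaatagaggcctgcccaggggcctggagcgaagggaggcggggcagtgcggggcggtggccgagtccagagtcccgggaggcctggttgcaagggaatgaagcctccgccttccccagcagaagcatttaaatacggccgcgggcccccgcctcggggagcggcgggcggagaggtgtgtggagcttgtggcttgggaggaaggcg
Ces1d: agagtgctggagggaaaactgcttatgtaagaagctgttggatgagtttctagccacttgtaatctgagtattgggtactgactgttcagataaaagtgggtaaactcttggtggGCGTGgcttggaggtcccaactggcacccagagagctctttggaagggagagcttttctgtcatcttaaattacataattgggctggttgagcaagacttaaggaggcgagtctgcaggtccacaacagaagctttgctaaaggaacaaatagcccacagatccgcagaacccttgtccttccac

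Flavin-containing monooxygenases add oxygen to nitrogen and sulfur atoms, and of the 4 members described here Fmo2 was called, higher, beside 1.13% of all transcripts. Fmo1 had 41.6 ± 8.16 RPKM in controls and 48.2 ± 13.2 in EtOH livers (log2 fold change 0.35 ± 0.17 SE, limma adjusted p = 0.35), and Fmo4 had 4.60 ± 0.927 and 4.92 ± 1.10 (0.15 ± 0.17 SE, adjusted p = 0.69). Fmo5, on chromosome 2, had 83.2 ± 12.2 and 99.8 ± 17.1 RPKM and was not called (0.41 ± 0.11 SE, adjusted p = 0.079). Of 14 other settings 2 gave a call in limma, a minimum mean of 1 RPKM (adjusted p = 0.041) and transcripts summed per gene (0.040). Without normalisation between livers its adjusted p was 0.32. Fmo2, the lung form of the family, has 2 listed transcripts. The one that stood for it was at 0 in controls 2, 4 and 6. It lay at 0.46 to 0.63 RPKM in the other controls, against 0.70 to 1.43 in the EtOH livers, so the groups did not overlap. In all, 11 reads lay behind its control values and 65 behind those of the deeper EtOH libraries (log2 fold change 1.12 ± 0.27 SE, limma adjusted p = 0.049). The other transcript, above 0 in 6 controls and 2 EtOH livers, rested on 9 reads in each group (-0.24 ± 0.18 SE, adjusted p = 0.60). With both summed the log2 fold change was 0.84 ± 0.21 SE (limma adjusted p = 0.035). The Fmo2 call was lost in 10 of 12 fits with 1 liver left out, with adjusted p up to 0.10, and held only without control 1 or control 5. Among 13 other settings the call held in 6.

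**Figure D3:**
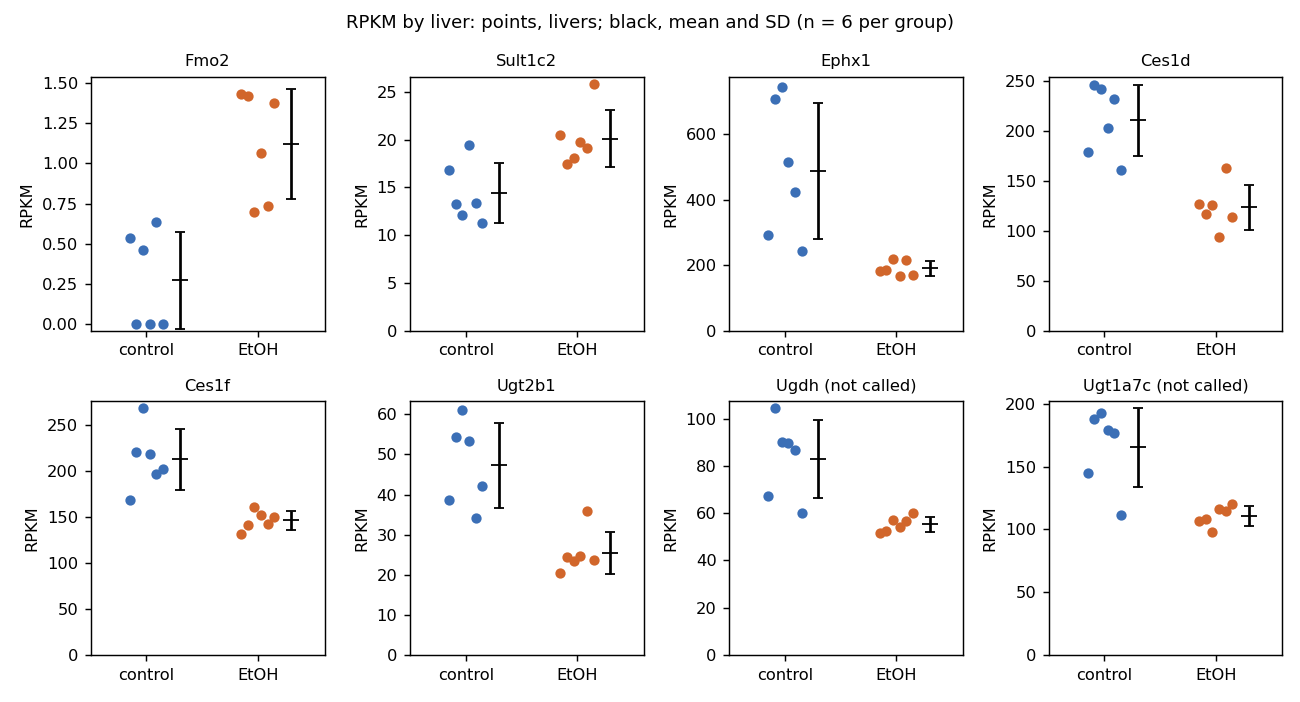
RPKM (vertical axes, 1 scale per gene) of the 6 called members and of Ugdh and the most abundant Ugt1a7c transcript, which were not called, with 1 point per liver and black marks for mean and SD of 6 livers. Fmo2, Ephx1 and Ces1f show no overlap between groups, and Ephx1 is spread from 244 to 745 RPKM among control livers but from 167 to 217 among EtOH livers.

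The aldehyde oxidase Aox4, a molybdenum enzyme that oxidises aldehydes and nitrogen rings, ran from 5.21 to 12.9 RPKM in control livers (median 11.1) and from 9.04 to 15.4 in EtOH livers (median 12.6). The difference was not called (log2 fold change 0.42 ± 0.20 SE, limma adjusted p = 0.33). Sult1c3, Sult2b1, Ces2i and Ugt2b7 had means below 1 RPKM, no liver with more than 9 reads, and adjusted p values from 0.41 to 0.73, and none of them was called.

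Levels of the families other than Fmo were also summed and compared with no test. The Ces1 sum was 504 ± 70.5 RPKM in controls and 334 ± 27.7 in EtOH livers (SD, n = 6 each), with a ratio of 0.66 and no overlap. The Sult1 and Sult2 sums had ratios of 1.04 and 1.08, Ces2 of 0.83 and Ugt2b of 0.87, and in each of these the groups overlapped. The listed Ugt1 transcripts together came to 286 ± 59.5 RPKM in controls and 177 ± 13.2 in EtOH livers, where the lowest control at 195 stood just above the highest EtOH liver at 193.

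**Figure D4:**
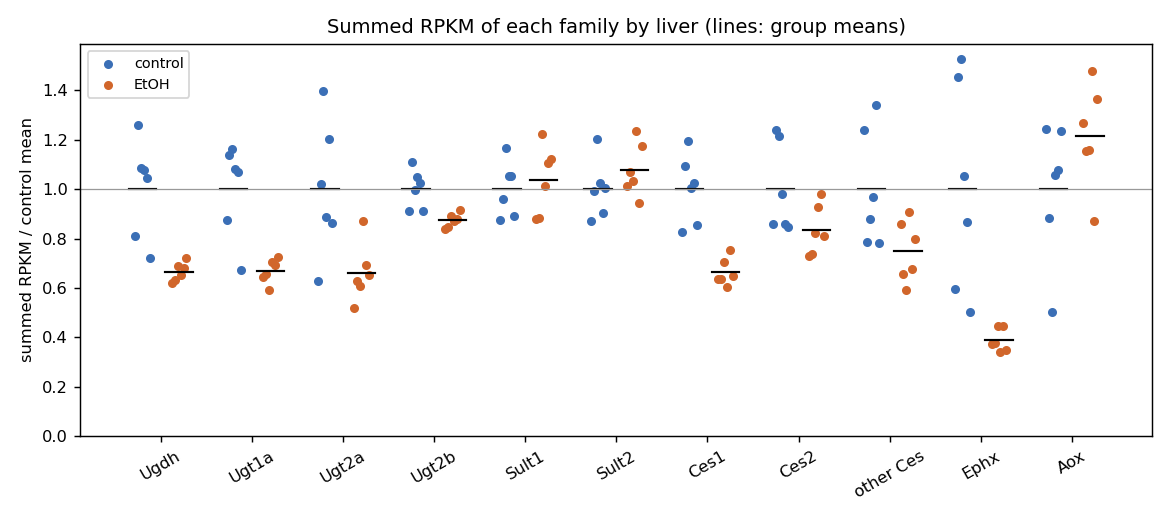
Summed RPKM of the members of each family other than Fmo in each liver, divided by the mean of the 6 control livers (vertical axis, no unit), with lines at group means. Ugt1a is its most abundant transcript only. The Ephx and Ces1 points of EtOH livers lie below all control points (ratios 0.39 and 0.66).

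Genes around these enzymes were counted by list from the same fit. In it 8 list genes were called lower, 6 of them NRF2 targets, and 13 higher (15 and 6 without normalisation between livers). The number of genes tested is given with each list below. Over all transcripts tested 1.29% were called lower and 1.13% higher. Of 12 genes listed for the supply, transport or turnover of UDP-glucuronate and PAPS, among them the member Ugdh, 0 were called in limma. At an unadjusted p below 0.05 there were 3 (Ugdh, Slc35b1 and Slc26a1), with 15.5% of all transcripts at that level. Of 6 deconjugating enzymes 0 were called, and the beta-glucuronidase Gusb came nearest with 8.18 ± 2.00 RPKM in controls and 11.9 ± 1.24 in EtOH livers (log2 fold change 0.66 ± 0.16 SE, limma adjusted p = 0.050). Of 13 other conjugating enzymes 1 was called, the medium-chain acyl-CoA synthetase Acsm2, which activates acids for glycine conjugation, at 31.0 ± 10.2 and 9.96 ± 1.09 RPKM (log2 fold change -1.39 ± 0.17 SE, limma adjusted p = 0.0022). Of 11 other esterases and hydrolases 1 was called, the hepatic lipase Lipc, at 150 ± 13.7 and 182 ± 14.1 RPKM (0.42 ± 0.09 SE, adjusted p = 0.030), though it was called in only 4 of 12 fits with 1 liver left out (without control 1 or 6 or EtOH 1 or 5). Of 11 genes for electron supply and molybdenum cofactor 0 were called, with the smallest p in Mocos (-0.62 ± 0.17 SE, adjusted p = 0.077).

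Among 15 regulators of drug enzymes 3 were called, all higher: the receptor PXR (Nr1i2) with a log2 fold change of 0.34 ± 0.08 SE, its partner Rxra with 0.24 ± 0.05 and the glucocorticoid receptor Nr3c1 with 0.56 ± 0.10 (limma adjusted p = 0.044, 0.023 and 0.016). These counts stand beside 1.13% of all transcripts called higher. Without normalisation between livers Nr1i2 and Rxra were not called. With 1 liver left out Nr1i2 was called in only 2 of 12 fits (without control 4 or EtOH 1, adjusted p up to 0.093 in the rest), Rxra was lost in 4 (without control 2 or EtOH 2, 3 or 4), and Nr3c1 was called in all 12. Neither the 7 CAR and PXR target genes found by name nor the 4 AHR target genes gave a call, and the smallest p among them were those of Abcb1a (-0.71 ± 0.34 SE, adjusted p = 0.35) and Nqo1 (-0.64 ± 0.20 SE, adjusted p = 0.12). The AHR gene itself had 18.5 ± 4.83 RPKM in controls and 22.7 ± 2.41 in EtOH livers (0.47 ± 0.15 SE, adjusted p = 0.13).

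Of 12 NRF2 target genes 6 were called, all lower, beside 1.29% of all transcripts. They were the glutathione synthesis genes Gclc and Gclm, the thioredoxin reductase Txnrd1, the glutathione transferases Gsta2 and Gstp1 and the malic enzyme Me1. In each of these 6 called genes the groups did not overlap, beside 2.43% of all transcripts that did not overlap with EtOH lower. Gsta2 had 388 ± 154 RPKM in controls and 152 ± 25.5 in EtOH livers (log2 fold change -1.12 ± 0.21 SE, limma adjusted p = 0.018), and Gstp1 had 211 ± 179 and 20.5 ± 4.53 (-2.69 ± 0.52 SE, adjusted p = 0.023). With 1 liver left out Gclm was called in only 3 of 12 fits (without control 1 or 6 or EtOH 1), Gstp1 was lost in 2 (without control 4 or EtOH 2), and the other 4 were called in all 12. The NRF2 gene Nfe2l2 itself was not called (57.1 ± 3.12 and 46.2 ± 5.97 RPKM, -0.15 ± 0.10 SE, adjusted p = 0.51). The list was chosen with earlier results of these data known, so its direction is not independent evidence.

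Markers of other liver cells moved in part with the groups. Of 6 Kupffer and leukocyte markers 2 were called higher (Clec4f and Cd163), of 6 stellate markers 1 (Col1a2), of 3 endothelial markers 1 (Cdh5), and of 4 cholangiocyte, 4 erythroid and 4 hepatocyte markers 0, beside 1.13% of all transcripts called higher. With 1 liver left out these calls were often lost: Cdh5 was called in 1 of 12 fits (without control 6), Cd163 in 2 (without control 6 or EtOH 6), Col1a2 in 4 (without control 1, 3 or 6 or EtOH 6) and Clec4f in 7 (all but those without control 4 or EtOH 1, 3, 4 or 5). The smallest p of the lists without a call were those of Cftr, Hba2 and Serpina1, with adjusted p of 0.67, 0.31 and 0.65. Quantile normalisation gives transcripts that hold the same rank in every liver a shared value. The very abundant hepatocyte markers had a median log2 fold change of 1.0e-15, so the lack of calls among them was set in part by that step. Summed Kupffer and leukocyte markers ran from 83.7 to 122 RPKM in controls and from 112 to 143 in EtOH livers, stellate markers from 6.93 to 11.1 and from 10.2 to 15.8, and endothelial markers from 24.5 to 31.3 and from 27.8 to 38.6. No marker found by name was at 0 in all livers. Of 9 periportal genes 4 were called, all higher (Cps1, Sds, Gls2 and Pck1), and of 7 pericentral genes Oat was called higher and Lgr5, near 0 in all livers, lower, beside 1.13% of all transcripts higher and 1.29% lower. Gls2 was called in 3 of 12 fits with 1 liver left out (without control 6 or EtOH 1 or 4), Lgr5 in 5 (without any control but the fifth) and Cps1 in 8 (all but those without control 2 or EtOH 2, 3 or 5), and Sds, Pck1 and Oat in all 12. The part of these cell-type and zonation genes in the differences of the members was not tested.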

How the data were processed

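Poly(A) RNA of 12 livers, each of a separate animal, was sequenced in paired reads of 101 nucleotides. The authors mapped them with CLCbio Genomics Workbench 4.9 and deposited RPKM for 34391 transcripts. No source used here gives the genome build, and positions are as listed. Columns of the authors' fold changes, test statistics, p values and FDR were not used. In all 21718 transcripts above 0, the values could be written as whole reads within 0.01. The smallest whole numbers that fitted the ratios between livers were taken as the recovered reads. For transcripts above 0 in few livers such a fit is nearly certain, so their recovered reads are the fewest possible and were not checked further. Quantile-normalized log2(RPKM + 0.5), a scale that understates changes of low genes, was compared with limma 3.58.1 (R 4.3.3, mean-variance trend) and Benjamini-Hochberg adjustment at 0.05. Figures and sums used Python 3.11.15. The fit was tested on simulated data.

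One gene covered by the choice of names is not reported here. Members and gene lists were chosen with earlier results of these data known. Named were all called or non-overlapping members, the 2 highest of each family, the 6 uncalled with the smallest p, a list of well-known enzymes, and each called and smallest-p list gene. Other members complete their families and were named after their values were seen. Alternatives were other pseudocounts (0.1 and 1), scalings, filters and tests (voom on recovered reads and the study's pooled test among them), transcripts summed per gene, an animal-number block, and each liver left out.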

Additional observations from a re-analysis of the deposited data

Results flagged for a closer look

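In 48 groups of 6 livers, each a transcript in the control or the EtOH livers, 4 held a liver far from the other 5 by Dixon's test, and chance alone gives about 1 in 20. Ces2c stood at 18.1 RPKM in control 3, with the other controls between 9.27 and 11.9. Sult1c2 stood at 25.8 RPKM in EtOH 6, with the others between 17.4 and 20.5. Ugt2b1 stood at 35.8 RPKM in EtOH 5, with the others between 20.5 and 24.6. The Ugt1 transcript from 87052168 (Ugt1a7c) stood at 59.7 RPKM in EtOH 5, with the others between 39.2 and 46.3.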

How the results depend on the processing

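Among the members (4 called lower, 2 higher), 2 were lower and 0 higher under the pooled test on square-root values with quantile step, 0 were higher under that test without it, and 1 was lower and 0 higher in limma with no filter, where limma as reported had 15 at an unadjusted p below 0.05. With a pseudocount of 0.1, no normalization or limma on square-root values 1 was higher, and with transcripts summed per gene 6 were lower and 4 higher. Leaving out each liver gave 1 to 6 lower and 0 to 2 higher. Of the genes around them (8 lower, 13 higher), 15 were lower and 6 higher without normalization, 5 lower under the pooled test with quantile step, 5 higher under it without, 6 higher with no filter, and 5 to 10 lower and 4 to 14 higher with each liver left out. The animal numbers do not pair the livers: same-number deviations correlated from -0.07 to 0.03 and 1 of 6 controls matched its own number best. An animal-number block gave 2 members lower and 0 higher, and 2 list genes lower and 2 higher, with 113 calls over all transcripts in place of 526. Over all transcripts there were 281 lower and 245 higher, but 648 and 126 without normalization, 337 and 194 with median scaling, 389 and 84 under the pooled test without quantile step, 322 calls with it, 267 with no filter, 860 at a mean of at least 1, 977 of 15270 summed per gene, and 212 to 656 with each liver left out. Family ratios with each liver left out ran from 0.642 to 0.691 for Ces1 and from 0.354 to 0.435 for Ephx. Values near 0 changed sign: Ces2c to 0.0084 without control replicate 3 (-0.17 to 0.0084 over all livers left out), and Ugt2b36 to 0.0018 with transcripts summed and to 0.018, 0.012 and 0.0049 without control replicate 2, 4 or 5 (-0.075 to 0.018 over all). The minor HYES_RAT transcript, at 0 in every control and above 0 in 2 EtOH livers, had 1.36. Summed over its transcripts, HYES_RAT had -0.21, the same sign as its main transcript alone (-0.47). The cause of these changes was not tested. At 2610238 to 6030028 reads per liver, members below 1 RPKM rest on 0 to 13 reads a liver.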

Other observations

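A pattern noticed after the values were seen concerned single control livers. Controls 1 and 6 were the 2 lowest of the 6 controls for 10 of the 25 members with a mean of at least 1 RPKM (40%), namely Ces1d, Ces1e, Ephx1, Fmo5, Sult1b1, Sult2al1, Ugdh, Ugt1a7c, Ugt2a3 and Ugt2b37. Over all 11086 transcripts at that level the same held for 1214. The relative spread (SD over mean) was larger among controls than among EtOH livers for 18 of the 25 members (72%) and for 63.9% of all such transcripts.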
